A study of Homo sapiens with 12 samples.

Results

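The knockout by bortezomib interaction is the difference between knockout and control cells in how strongly each gene's RNA changed with bortezomib. It was computed for each gene as the bortezomib minus vehicle difference averaged over 2 NFE2L1 knockout lines, minus the same difference in control cells, on the log2 scale. The genes were the 12194 of 58676 in the deposited table (20.8%) with a mean FPKM (a read count divided by gene length and library size) of at least 1 over all 12 libraries. All cells were A549, an established human lung adenocarcinoma line, in 3 genotypes labelled Control1, NFE2L1 KO1 and NFE2L1 KO2, with titles that start B2, B4 and B6. Each genotype received DMSO vehicle or 200 nM bortezomib for 4 h, with 2 libraries for each of the 6 groups. How the knockouts were made and whether each line is 1 clone are not given in the sources used here. Control1 was the only control line, so a trait of that line cannot be told apart from an effect of the knockout. Nothing in the labels says that the 2 libraries of a group came from separate cultures, so p-values measure the spread between these libraries, which may be technical.

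Bortezomib blocks the chymotrypsin-like activity of the proteasome, the protease complex that degrades ubiquitin-tagged proteins. NFE2L1, also called NRF1, is a transcription factor made at the endoplasmic reticulum and normally degraded by the proteasome. When proteasome activity falls it is released, cut and moved to the nucleus, where it is known to raise transcription of proteasome subunit genes. Proteasome inhibition also starts the heat shock response, the ATF4 pathway, and JNK and AP-1 signalling, and it blocks the degradation of IkappaB that NF-kappaB signalling needs.

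The targeted gene, at chr17:48048329-48061487 (+ strand) in GRCh38, was checked first. NFE2L1 FPKM in control cells was 72.7 and 151 in vehicle and 109 and 189 in bortezomib. KO1 had 8.45 and 14.8 in vehicle and 27.0 and 35.8 in bortezomib, whereas KO2 had 18.6 and 33.6 in vehicle and 36.7 and 50.8 in bortezomib. All 8 knockout libraries were below all 4 control libraries, and some RNA remained in both knockout lines. The interaction of NFE2L1 itself was 0.67 ± 0.21 (SE; adjusted p = 0.14), which did not pass the test. Throughout, the first of 2 values in a group is the unnumbered control library or the R1 knockout library, and the second is the library titled R2.

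The libraries held 13211608 to 23819258 reads assigned to genes, with 20713 to 23593 genes above 0. Mitochondrially encoded genes took 5.44% to 6.80% of reads in the unnumbered and R1 libraries and 12.3% to 19.3% in the R2 libraries. The title suffix, which splits the libraries this way, was a term of the fit. Within a suffix the mitochondrial share also moved with the interaction. It was higher with bortezomib in both control pairs (6.64% to 6.80% and 12.3% to 15.6%) and lower in all 4 knockout pairs, from 6.76% to 6.0% and from 19.3% to 17.9% in KO1 and from 5.79% to 5.44% and from 14.7% to 14.4% in KO2. With the mitochondrially encoded genes left out of the fit, 125 genes passed the interaction test, beside 113 with them. The epithelial keratins KRT7, KRT8 and KRT18 were between 112 and 755 FPKM in every library. The epithelial markers CDH1 and EPCAM were lower, from 1.42 to 9.53 and from 1.25 to 10.6. SFTPA1 was listed at 0 throughout, NKX2-1 and SFTPC did not exceed 0.0858 and 0.0568, and the immune marker PTPRC did not exceed 0.0602. The highest members of their lists were the alveolar marker NAPSA (up to 0.732), the immune marker CD14 (up to 3.63) and the fibroblast marker COL1A1 (up to 23.3). The summed level of 5 fibroblast markers ranged from 1.89 to 24.2 FPKM, of 5 immune markers from 0.204 to 3.73 and of 3 endothelial markers from 0.00945 to 0.240.

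The response to bortezomib differed between the knockout lines and the Control1 line for 113 of 12194 genes (0.927%). The threshold was a Benjamini-Hochberg adjusted p under 0.05 in limma. The response was higher in the knockout lines for 39 genes (0.320%) and lower for 74 (0.607%). The 39 genes included the cytokine gene IL11, the chemokine genes CXCL1, CXCL2 and CXCL3, the phosphatase genes DUSP1 and DUSP5 and the transcription factor gene JUN. The 74 included KIAA1217, the kinesin gene KIF1B, the inositol kinase gene ITPKC and the tubulin gene TUBB4A. An unadjusted p under 0.05 was reached by 1431 genes. In bulk RNA, fewer cells of a kind and less RNA per cell cannot be told apart.

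The count of 113 depended on the model and on a few libraries. Without the suffix as a block, 0 genes passed in limma (74 at an unadjusted p under 0.05). With the block but on log2(FPKM + 1) in place of the recovered reads, 0 passed as well (1305 at an unadjusted p under 0.05, smallest adjusted p 0.064). Without the control R2 vehicle library 4 genes were called, 3 of them among the 113, and without the control R2 bortezomib library 3 were, 2 of them among the 113. Without the unnumbered control library in vehicle or in bortezomib 40 were called each time, with 29 and 27 of them among the 113. The counts were 23 and 43 without the R2 and R1 vehicle libraries of KO2, 45 without the R2 bortezomib library of KO1 and 174 without the R1 bortezomib library of KO2. Among the 29 called genes of the naming rule reported here, IL11 and DUSP1 were called in each of the 12 fits that left out 1 library. The others lost the call in at least 1 of those fits, 26 without the control R2 vehicle library and 27 without the control R2 bortezomib library.

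With the suffix as a block, bortezomib alone changed many genes in each line. The response passed the test for 4624 genes in control cells (37.9%), 4019 in KO1 (33.0%) and 3950 in KO2 (32.4%). Without the block the response passed in limma for 41, 27 and 31 genes. The median response of the 39 genes was -0.61 in control cells, 0.72 in KO1 and 0.71 in KO2, so the middle gene of this group was lower with bortezomib in control cells and higher in both knockout lines. The median response of the 74 genes was 1.06 in control cells, -0.25 in KO1 and 0.05 in KO2. Over all genes tested the 3 medians were -0.01, 0.01 and -0.03. These medians describe genes that the same libraries selected.

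**Figure D1:**
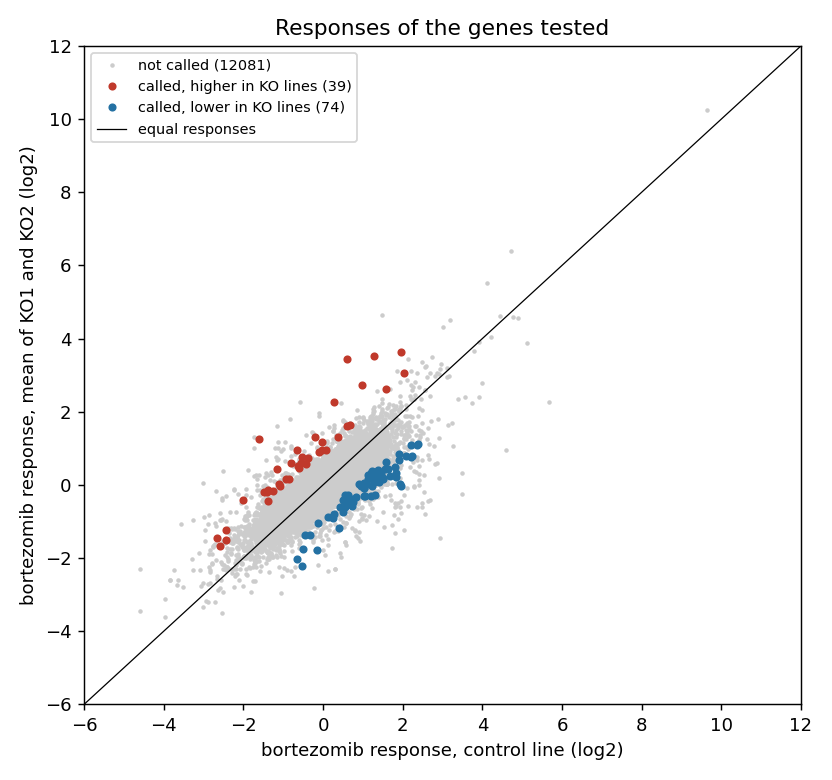
Bortezomib response (log2) of the 12194 genes tested, control line on the x axis and the mean of KO1 and KO2 on the y axis, each point 1 gene. The 39 genes called higher in the knockout lines lie above the line of equal responses and the 74 called lower lie below it.

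In each of the 113 called genes the interaction had the same sign in all 4 pairs of libraries, that is each knockout line with each suffix. The responses of the 4 knockout pairs and the 2 control pairs did not overlap in any of the 113. Of all genes tested, 39.7% had the same sign in all 4 pairs and 21.6% had no overlap. The call used the same values, so nothing further is read from these counts.

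The highest interaction among the named genes was that of IL11, an interleukin of the IL-6 family that signals through gp130. The gene lies at chr19:55364389-55370463 (- strand). IL11 FPKM in control cells was 17.1 and 27.1 in vehicle and 4.58 and 10.4 in bortezomib. KO1 had 4.96 and 3.73 in vehicle and 8.10 and 17.9 in bortezomib, whereas KO2 had 4.22 and 3.56 in vehicle and 5.14 and 9.90 in bortezomib. Both bortezomib libraries were below both vehicle libraries in control cells and above them in each knockout line, where the vehicle level was lower than in any control vehicle library. The log2 response was -1.60 (adjusted p = 0.00014) in control cells, 1.59 (adjusted p = 0.00017) in KO1 and 0.91 (adjusted p = 0.015) in KO2. The interaction was 2.85 ± 0.34 (SE; adjusted p = 0.00043), with pair values of 2.60 and 3.64 for KO1 and 2.18 and 2.85 for KO2.

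CXCL1, CXCL2 and CXCL3 encode neutrophil-attracting chemokines that act through CXCR2, and they lie together on chromosome 4. CXCL3 FPKM was 0.965 and 3.20 in vehicle and 2.15 and 4.02 in bortezomib in control cells. It was 5.26 and 3.74 in vehicle and 52.8 and 59.8 in bortezomib in KO1, and 0.753 and 1.36 in vehicle and 7.94 and 10.5 in bortezomib in KO2. Every bortezomib library of a knockout line was above every library of the control line, most of all in KO1. The response was 0.60 in control cells, 3.71 in KO1 and 3.16 in KO2, and the interaction was 2.83 ± 0.44 (SE; adjusted p = 0.003).

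CXCL1 was highest in KO1 with bortezomib. Its FPKM was 4.33 and 14.8 with bortezomib in control cells, 119 and 291 in KO1, against 12.7 and 28.4 in KO2. The corresponding vehicle values were 1.17 and 7.01, 9.28 and 11.6 and 1.90 and 3.93. The first KO2 bortezomib library lay between the 2 control bortezomib libraries, so the bortezomib levels of KO2 and control overlapped while the responses did not. The response was 1.28 in control cells, 4.25 in KO1 and 2.79 in KO2, and the interaction was 2.24 ± 0.44 (SE; adjusted p = 0.018). For CXCL2 the response was 1.96 in control cells, 3.99 in KO1 and 3.30 in KO2, and the interaction was 1.69 ± 0.31 (SE; adjusted p = 0.012). CXCL2 FPKM with bortezomib was 11.3 and 20.7 in control cells, 105 and 192 in KO1, against 20.4 and 28.6 in KO2. The 3 genes are close paralogs, and how reads that match more than 1 of them were counted is not given in the sources used here.

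Other members of the CXCL family were grouped after their values were seen. CXCL8 had an interaction of 1.30 ± 0.63 (SE; adjusted p = 0.43), with responses of 2.14 in control cells, 3.79 in KO1 and 3.09 in KO2. CXCL5 had 0.77 ± 0.28 (adjusted p = 0.24) and CXCL16 -0.01 ± 0.24 (adjusted p = 0.99). In all, 6 CXCL genes were tested and 3 passed. Among 16 tested genes of the list of NF-kappaB and cytokine genes, IL11 and the 3 CXCL genes passed, and the list's median interaction was 0.07, with 9 genes above 0 and 7 below.

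The promoters of the 3 called chemokine genes and of IL11 are shown because these were the 4 genes of the cytokine list that passed. Sequences are RefSeq's, build GRCh38.p14, from 250 bases before to 50 bases after the start site. Capitals mark the NF-kappaB motif GGANTTNCC in the CXCL promoters and the AP-1 motif TGANTCA in that of IL11. Each motif was searched on both strands, and TGANTCA and TGACNNNGC, the latter given below with other motifs, can share bases. In order, the regions are chr4:73869143-73869442 (+ strand), chr4:74099146-74099445 (- strand), chr4:74038640-74038939 (- strand) and chr19:55370414-55370713 (- strand).
CXCL1: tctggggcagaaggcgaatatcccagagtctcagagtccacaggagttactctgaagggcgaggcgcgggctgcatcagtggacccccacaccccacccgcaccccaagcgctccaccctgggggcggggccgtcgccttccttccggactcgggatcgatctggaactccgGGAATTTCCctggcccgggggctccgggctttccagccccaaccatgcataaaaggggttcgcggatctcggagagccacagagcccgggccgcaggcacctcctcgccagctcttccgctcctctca
CXCL2: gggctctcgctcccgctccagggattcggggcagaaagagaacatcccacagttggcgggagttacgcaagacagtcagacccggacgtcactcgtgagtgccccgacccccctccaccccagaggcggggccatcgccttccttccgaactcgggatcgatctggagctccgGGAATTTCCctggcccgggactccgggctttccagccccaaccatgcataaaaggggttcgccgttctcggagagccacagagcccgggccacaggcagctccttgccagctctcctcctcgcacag
CXCL3: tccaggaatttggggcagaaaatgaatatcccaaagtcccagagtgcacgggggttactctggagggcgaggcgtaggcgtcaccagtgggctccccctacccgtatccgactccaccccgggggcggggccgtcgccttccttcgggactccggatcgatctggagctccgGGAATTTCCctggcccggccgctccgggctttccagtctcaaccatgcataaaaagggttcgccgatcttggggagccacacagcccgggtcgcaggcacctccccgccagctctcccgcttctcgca
IL11: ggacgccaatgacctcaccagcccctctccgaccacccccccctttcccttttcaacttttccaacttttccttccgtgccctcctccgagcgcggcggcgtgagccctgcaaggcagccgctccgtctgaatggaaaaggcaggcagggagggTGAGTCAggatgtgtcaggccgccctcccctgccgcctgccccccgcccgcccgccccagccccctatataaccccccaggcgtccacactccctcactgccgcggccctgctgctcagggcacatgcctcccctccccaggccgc

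The capital letters begin 78, 77 and 78 bases before the start site in CXCL1, CXCL2 and CXCL3, and 96 bases before it in IL11. A promoter was matched by symbol for 31 of the 39 genes, 58 of the 74 and 8989 of all genes tested. The NF-kappaB motif was present in 12.9% of the promoters of the genes called higher (4 of 31), 1.72% of those called lower (1 of 58), 4.39% of all tested and 4.23% of the 27305 promoters in the RefSeq table. Of the 4 genes called higher, CXCL1, CXCL2 and CXCL3 are close paralogs with the same letters, so they do not count as independent promoters. A form with 1 more leading G and any base in place of the A gave 12.9%, 3.45%, 6.76% and 5.67%. The same CXCL promoters held that form. The AP-1 motif was present in 3.23%, 5.17%, 4.38% and 7.76%. The NFE2L1 and NRF2 antioxidant response motif TGACNNNGC was present in 12.9% of promoters of genes called higher, 17.2% of those called lower and 15.3% of all tested. The ATF4 motif TGATGNAA was in 0%, 1.72% and 1.57%, the motif TGACGTCA in 6.45%, 1.72% and 3.46%, and the E-box CACGTG in 9.68%, 8.62% and 10.3%. The motifs were chosen with gene values known, and these shares describe the letters in the windows and were not tested.

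DUSP1 and DUSP5 encode phosphatases that switch off MAP kinases, DUSP1 mainly p38 and JNK and DUSP5 ERK. DUSP1 lies at chr5:172768090-172771195 (- strand). DUSP1 FPKM was 103 and 61.0 in vehicle and 194 and 124 in bortezomib in control cells, 26.7 and 12.7 in vehicle and 191 and 123 in bortezomib in KO1, and 35.0 and 17.2 in vehicle and 149 and 117 in bortezomib in KO2. With bortezomib the 3 lines overlapped, whereas in vehicle all 4 knockout libraries were below both control libraries. DUSP1 rose in each line, by 0.96 (adjusted p = 0.00025), 3.05 (adjusted p = 1.08e-10) and 2.42 (adjusted p = 3.23e-09) on the log2 scale in control, KO1 and KO2. The interaction was 1.77 ± 0.22 (SE; adjusted p = 0.00043), with pair values of 1.93 and 2.25 for KO1 and 1.18 and 1.74 for KO2.

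DUSP5 FPKM was 25.3 and 16.5 in vehicle and 14.5 and 9.42 in bortezomib in control cells, 12.6 and 6.84 in vehicle and 16.1 and 14.5 in bortezomib in KO1, and 11.4 and 8.50 in vehicle and 13.7 and 13.9 in bortezomib in KO2. Both control pairs were lower with bortezomib and all 4 knockout pairs higher. Its response was -0.80 (adjusted p = 0.0026) in control cells, 0.72 (adjusted p = 0.0082) in KO1 and 0.48 (adjusted p = 0.066) in KO2, and its interaction was 1.41 ± 0.24 (SE; adjusted p = 0.006). Of the 14 tested MAPK feedback genes, these 2 passed. The list had 11 genes above 0 and 3 below, with a median of 0.14. DUSP6, another ERK phosphatase gene, had 1.15 ± 0.44 (SE; adjusted p = 0.28).

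JUN encodes a subunit of the AP-1 transcription factor and is a target of JNK signalling. JUN FPKM was 31.3 and 14.3 in vehicle and 20.5 and 16.5 in bortezomib in control cells, 32.2 and 14 in vehicle and 69.2 and 54.1 in bortezomib in KO1, and 27.6 and 13.9 in vehicle and 46.4 and 37.6 in bortezomib in KO2. The 4 knockout bortezomib libraries were above every other library, and the vehicle levels of the 3 lines overlapped. The response was -0.22 (adjusted p = 0.46) in control cells, 1.52 (adjusted p = 2.28e-05) in KO1 and 1.09 (adjusted p = 0.0007) in KO2, and the interaction was 1.52 ± 0.27 (SE; adjusted p = 0.0073). Of the other AP-1 genes tested, FOSL2 had an interaction of 0.64 ± 0.20 (adjusted p = 0.14), JUND 0.53 ± 0.31 (adjusted p = 0.56), FOSL1 0.01 ± 0.30 (adjusted p = 0.99) and JUNB -0.11 ± 0.39 (adjusted p = 0.95).

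**Figure D2:**
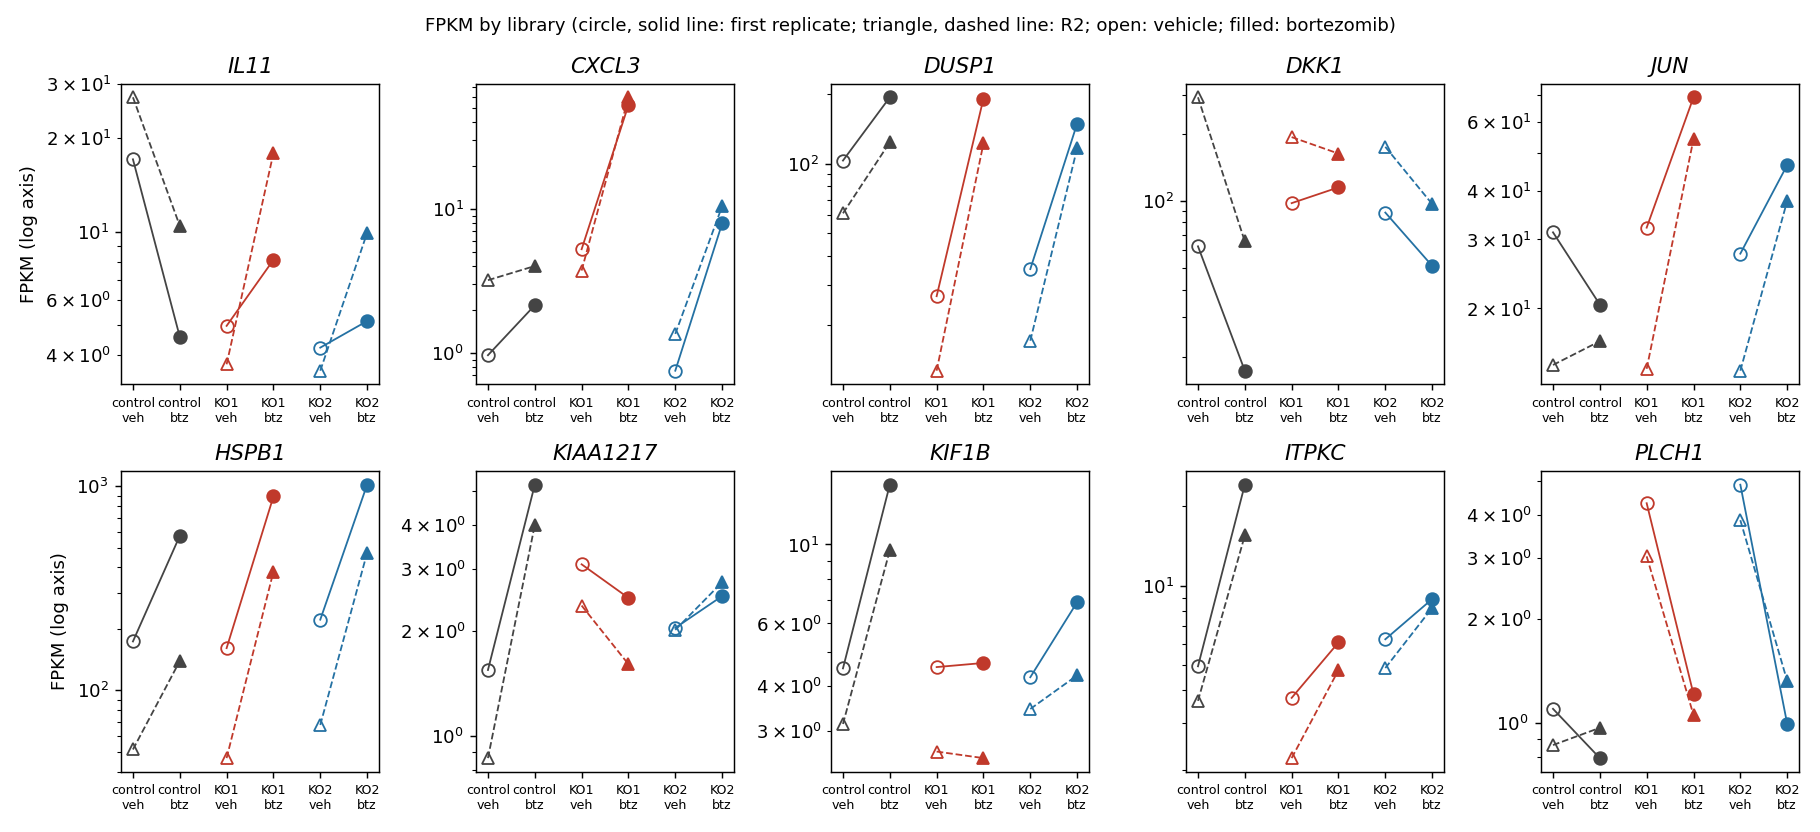
FPKM on a log axis in each of the 12 libraries for 10 named genes, with vehicle (veh, open) and bortezomib (btz, filled) of 1 suffix joined by a line; circles are unnumbered control or R1 knockout libraries and triangles are R2. IL11 goes down in both control pairs and up in all 4 knockout pairs, and KIF1B goes up in control cells from 4.49 and 3.13 to 14.7 and 9.63.

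The remaining named genes called higher encode secreted, membrane, cytoskeletal, stress and cell cycle proteins. DKK1, a secreted inhibitor of Wnt signalling, had FPKM values of 62.5 and 292 in vehicle and 17.3 and 65.7 in bortezomib in control cells. KO1 had 97.7 and 193 in vehicle and 115 and 163 in bortezomib, whereas KO2 had 88.6 and 175 in vehicle and 51.1 and 96.8 in bortezomib. The R2 library was the higher of the 2 in each of the 6 groups, so the groups overlapped in level while the responses within a suffix did not. DKK1 fell by 2.01 in control cells (adjusted p = 4.33e-08) and by 0.82 in KO2 (adjusted p = 0.001), and its response in KO1 was -0.01 (adjusted p = 0.98). The interaction was 1.60 ± 0.22 (SE; adjusted p = 0.00087).

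GPRC5A, an orphan receptor of lung epithelium, had FPKM values of 41.6 and 109.8 in vehicle and 32.8 and 66.0 in bortezomib in control cells, 69.1 and 129 in vehicle and 124 and 214 in bortezomib in KO1, and 65.9 and 124 in vehicle and 105 and 218 in bortezomib in KO2. Within each suffix bortezomib lowered the value in control cells and raised it in both knockout lines. Its interaction was 1.31 ± 0.20 (SE; adjusted p = 0.0028), and it was called in each line alone, with 1.33 for KO1 and 1.28 for KO2. PHLDB2, which links microtubules to the cell cortex, had responses of -0.66 in control cells, 0.86 in KO1 and 1.07 in KO2 and an interaction of 1.62 ± 0.23 (SE; adjusted p = 0.0015). Its knockout FPKM was 10.7 and 5.45 in vehicle and 24.4 and 7.69 in bortezomib in KO1 and 9.81 and 4.26 in vehicle and 23.0 and 7.99 in bortezomib in KO2, beside 8.05 and 6.60 in vehicle and 6.0 and 3.55 in bortezomib in control cells. The R2 bortezomib values of PHLDB2 in the knockout lines lay inside the range of the control vehicle values, while the pair values were 1.62 and 1.39 for KO1 and 1.65 and 1.80 for KO2.

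CYR61 (CCN1), a matricellular target of YAP, rose in all 3 lines, with responses of 0.60 in control cells, 1.71 in KO1 and 1.52 in KO2 and an interaction of 1.01 ± 0.23 (SE; adjusted p = 0.04). AXL, a receptor tyrosine kinase and YAP target, fell in all 3 lines, with responses of -2.44 in control cells, -1.53 in KO1 and -1.49 in KO2 and an interaction of 0.93 ± 0.22 (SE; adjusted p = 0.042). The AXL interaction was 0.58 and not called without either control R2 library, and it was called in 5 of 12 fits that left out 1 library. Of 13 YAP and TEAD target genes tested, CYR61 and AXL passed, and the list's median was 0.21 with 9 genes above 0. Of 12 TGF-beta and BMP feedback genes tested, 9 were below 0 and the median was -0.19. Without the control R2 vehicle library the TGF-beta median was 0.12 and without the unnumbered control vehicle library it was -0.53.

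The 2 least abundant of the named genes called higher were LAYN and EVA1A. LAYN encodes layilin, a hyaluronan receptor, and its FPKM was 2.02 and 4.35 in vehicle and 3.53 and 3.94 in bortezomib in control cells but 0.115 and 0.0171 in vehicle and 0.337 and 0.573 in bortezomib in KO1. KO2 had 0.340 and 0.545 in vehicle and 1.06 and 1.28 in bortezomib. The lowest value was 1 read, in the R2 vehicle library of KO1, so its interaction of 1.99 ± 0.48 (SE; adjusted p = 0.048) is imprecise, and it was called in 3 of 12 fits that left out 1 library. Without that R2 vehicle library it was 1.26 and not called. EVA1A, a regulator of autophagy, fell in control cells by 1.16 (adjusted p = 0.0042), with responses of 0.39 in KO1 and 0.50 in KO2 that did not pass. Its interaction was 1.61 ± 0.36 (SE; adjusted p = 0.037). It was 0.91 and not called without either control R2 library, and it was called in 6 of 12 fits that left out 1 library.

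**Figure D3:**
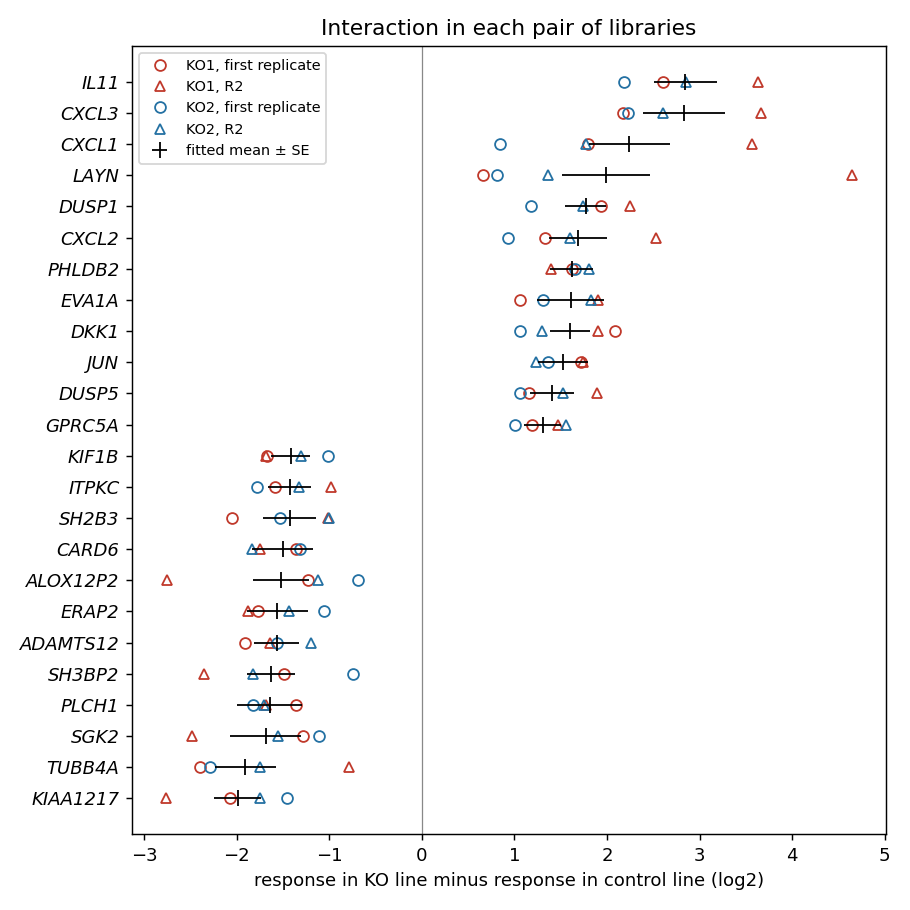
Interaction (log2) of the 12 genes with the highest and the 12 with the lowest values among those called, in each of 4 pairs of libraries, with the fitted mean ± SE. All pair values of the upper 12 are above 0 and those of the lower 12 below 0; LAYN is the widest, from 0.66 to 4.65.

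HSPB1, which encodes a small heat shock protein that holds unfolded proteins in solution, was the one gene of the heat shock and co-chaperone list that passed the test. HSPB1 FPKM was 174 and 51.3 in vehicle and 571 and 139 in bortezomib in control cells, 161 and 46.6 in vehicle and 891 and 382 in bortezomib in KO1, and 222 and 67.7 in vehicle and 1018 and 472 in bortezomib in KO2. Within each suffix the bortezomib level was higher in both knockout lines than in control cells. The response was 1.58 in control cells, 2.75 in KO1 and 2.5 in KO2, and the interaction was 1.04 ± 0.22 (SE; adjusted p = 0.029). Of 21 heat shock and co-chaperone genes tested, HSPB1 passed, 20 were above 0 and the median was 0.31. HSPA1B, the lowest of the list and a near-identical copy of HSPA1A, had responses of 4.77 in control cells, 4.81 in KO1 and 4.38 in KO2 and an interaction of -0.17 ± 0.27 (SE; adjusted p = 0.87). The list's median was 0.07 and 0.05 in the first pairs of KO1 and KO2 and 0.59 in both R2 pairs.

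The promoters of HSPB1 and JUN are shown as examples that held the paired heat shock element GAANNTTC, given in capitals. Other named genes held it too: EVA1A, also called higher, and HSPA1B and ASNS, which were not called. HSPB1 is at chr7:76302423-76302722 (+ strand) and JUN at chr1:58783998-58784297 (- strand), in RefSeq's GRCh38.p14.
HSPB1: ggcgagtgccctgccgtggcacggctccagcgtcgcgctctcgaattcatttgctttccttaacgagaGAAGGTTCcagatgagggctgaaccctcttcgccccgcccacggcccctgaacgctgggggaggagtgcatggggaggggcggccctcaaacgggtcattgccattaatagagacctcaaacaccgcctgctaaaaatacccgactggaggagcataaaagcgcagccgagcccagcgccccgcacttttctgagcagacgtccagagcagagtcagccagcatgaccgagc
JUN: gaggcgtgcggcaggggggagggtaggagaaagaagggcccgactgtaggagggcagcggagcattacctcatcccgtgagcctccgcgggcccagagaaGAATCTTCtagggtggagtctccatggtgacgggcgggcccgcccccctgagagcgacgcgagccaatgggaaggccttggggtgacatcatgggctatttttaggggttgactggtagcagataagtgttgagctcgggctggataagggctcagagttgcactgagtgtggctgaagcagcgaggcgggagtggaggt

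The capitals begin 182 bases before the start site in HSPB1 and 150 bases before it in JUN. This motif was in 22.6% of the promoters of genes called higher (7 of 31), 5.17% of those called lower (3 of 58), 4.52% of all genes tested and 6.87% of all promoters in the RefSeq table. The motif was searched after the gene values were known, and the shares were not tested.

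GDF15, a secreted stress cytokine and p53 target, rose in all 3 lines. GDF15 FPKM was 11.2 and 11.7 in vehicle and 38.4 and 57.2 in bortezomib in control cells, 9.70 and 16.9 in vehicle and 95.8 and 166 in bortezomib in KO1, and 12.7 and 17.3 in vehicle and 78.7 and 136 in bortezomib in KO2. All 4 knockout bortezomib libraries were above both control bortezomib libraries, and the interaction was 1.02 ± 0.22 (SE; adjusted p = 0.031). It was the one gene of 14 tested p53 targets that passed, and the median of that list was 0.12. ATF3, a stress-induced transcription factor, was the highest of the ATF4 pathway genes. ATF3 FPKM with bortezomib was 11.4 and 5.11 in control cells, 27.3 and 21.2 in KO1, against 24.4 and 21.1 in KO2. Its interaction of 1.40 ± 0.36 (SE; adjusted p = 0.074) did not pass.

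None of the 21 ATF4 pathway genes passed in limma, 18 were above 0 and the median was 0.35. An unadjusted p under 0.05 was reached by 5 of them, beside 1431 of all 12194 genes tested. The list's median was 0.70 and 0.73 in the first pairs of KO1 and KO2 but 0.03 and -0.24 in the R2 pairs. ASNS, asparagine synthetase, was the lowest of the list at -0.71 ± 0.48 (SE; adjusted p = 0.62), with responses of 2.33 in control cells, 1.70 in KO1 and 1.54 in KO2. CDC20, an activator of the anaphase-promoting complex, fell in all 3 lines, with responses of -2.67 in control cells, -1.08 in KO1 and -1.80 in KO2 and an interaction of 1.23 ± 0.28 (SE; adjusted p = 0.037). CDC20 FPKM with bortezomib was 14.4 and 8.31 in control cells, 32.2 and 16.4 in KO1, against 22.4 and 15.2 in KO2. It alone passed among 20 mitosis and replication genes, whose median was 0.11.

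Among the genes called lower in the knockout lines, KIAA1217, TUBB4A, SH3BP2, ERAP2, ALOX12P2, CARD6, SH2B3, ITPKC and KIF1B rose with bortezomib in control cells. KIAA1217 lies at chr10:23694746-24547848 (+ strand) and had FPKM values of 1.54 and 0.865 in vehicle and 5.21 and 4.00 in bortezomib in control cells. It had 3.09 and 2.36 in vehicle and 2.48 and 1.60 in bortezomib in KO1, and 2.04 and 2.01 in vehicle and 2.51 and 2.75 in bortezomib in KO2. The 2 control bortezomib libraries were the highest of all 12, and the 2 control vehicle libraries the lowest. The response was 1.96 (adjusted p = 4.01e-07) in control cells, -0.44 (adjusted p = 0.11) in KO1 and 0.38 (adjusted p = 0.17) in KO2. The interaction was -1.99 ± 0.25 (SE; adjusted p = 0.00048), with pair values of -2.07 and -2.76 for KO1 and -1.45 and -1.75 for KO2.

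KIF1B, at chr1:10210805-10381603 (+ strand), encodes a kinesin motor that moves mitochondria and synaptic vesicle precursors. KIF1B FPKM was 4.49 and 3.13 in vehicle and 14.7 and 9.63 in bortezomib in control cells, 4.53 and 2.62 in vehicle and 4.65 and 2.51 in bortezomib in KO1, and 4.24 and 3.45 in vehicle and 6.89 and 4.29 in bortezomib in KO2. Both control bortezomib libraries were above the other 10. The response was 1.67 (adjusted p = 2.68e-07) in control cells, -0.01 (adjusted p = 0.97) in KO1 and 0.51 (adjusted p = 0.026) in KO2, and the interaction was -1.42 ± 0.21 (SE; adjusted p = 0.0022). TUBB4A, a beta-tubulin gene, had an FPKM of 1.47 and 0.864 in vehicle and 6.44 and 2.59 in bortezomib in control cells, 1.48 and 0.528 in vehicle and 1.22 and 0.917 in bortezomib in KO1, and 1.63 and 1.14 in vehicle and 1.46 and 1.01 in bortezomib in KO2. The control bortezomib libraries were again the highest, and the interaction was -1.91 ± 0.33 (SE; adjusted p = 0.0073).

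ITPKC, which phosphorylates inositol trisphosphate, rose in all 3 lines and most in control cells. ITPKC FPKM was 4.94 and 3.65 in vehicle and 24.2 and 15.5 in bortezomib in control cells, 3.75 and 2.21 in vehicle and 6.08 and 4.77 in bortezomib in KO1, and 6.25 and 4.86 in vehicle and 8.89 and 8.22 in bortezomib in KO2. The response was 2.20 in control cells, 0.90 in KO1 and 0.63 in KO2, each past the test, and the interaction was -1.43 ± 0.23 (SE; adjusted p = 0.0035). SH2B3 and SH3BP2 encode adaptor proteins of cytokine receptor and immune receptor signalling. SH2B3 rose in all 3 lines, with responses of 2.22 in control cells, 0.65 in KO1 and 0.93 in KO2 and an interaction of -1.43 ± 0.29 (SE; adjusted p = 0.019). SH3BP2 had responses of 1.84 in control cells, -0.10 in KO1 and 0.52 in KO2, past the test in control cells alone, and an interaction of -1.63 ± 0.26 (SE; adjusted p = 0.0035). In vehicle, both genes were higher in the knockout lines than in control cells, by 1.47 for SH2B3 and 1.12 for SH3BP2 on the log2 scale.

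ERAP2, an aminopeptidase that trims peptides for HLA class I, had responses of 1.29 in control cells, -0.54 in KO1 and 0.00 in KO2 and an interaction of -1.56 ± 0.33 (SE; adjusted p = 0.026). CARD6, a CARD-domain protein, had 1.19 in control cells, -0.30 in KO1 and -0.32 in KO2 and an interaction of -1.50 ± 0.33 (SE; adjusted p = 0.031). The pseudogene ALOX12P2 had 1.84 in control cells, -0.30 in KO1 and 0.94 in KO2 and an interaction of -1.52 ± 0.30 (SE; adjusted p = 0.018). Each of these 3 genes rose in control cells, and their mean FPKM was 1.12, 1.87 and 1.52. ALOX12P2 overlaps 3 gene models on the opposite strand and is a copy of ALOX12, so its reads are uncertain.

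For PLCH1, SGK2 and ADAMTS12 the response passed the test as a fall in both knockout lines and did not pass in control cells. PLCH1, a phospholipase C, had an FPKM of 1.10 and 0.865 in vehicle and 0.793 and 0.970 in bortezomib in control cells, 4.32 and 3.03 in vehicle and 1.21 and 1.06 in bortezomib in KO1, and 4.89 and 3.86 in vehicle and 0.997 and 1.33 in bortezomib in KO2. The 4 knockout vehicle libraries were the highest, and with bortezomib the 3 lines lay between 0.793 and 1.33. The response was -0.15 in control cells, -1.67 in KO1 and -1.91 in KO2, and the interaction was -1.65 ± 0.35 (SE; adjusted p = 0.028). SGK2, a serum and glucocorticoid-regulated kinase, had responses of -0.53 in control cells, -2.54 in KO1 and -1.89 in KO2 and an interaction of -1.69 ± 0.38 (SE; adjusted p = 0.037). The SGK2 interaction was -1.10 and not called without either control R2 library. ADAMTS12, a secreted metalloprotease, was lower in the knockout lines before treatment and fell further. Its FPKM was 2.25 and 3.68 in vehicle and 3.21 and 4.46 in bortezomib in control cells, 1.55 and 1.75 in vehicle and 0.588 and 0.677 in bortezomib in KO1, and 0.361 and 0.377 in vehicle and 0.172 and 0.199 in bortezomib in KO2, and its interaction was -1.57 ± 0.24 (SE; adjusted p = 0.0028).

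Of the 19 tested genes of the cholesterol synthesis list, 17 were below 0, and the median was -0.19. The pair medians were 0.05 and -0.65 for KO1 and -0.10 and -0.27 for KO2. SCD, a fatty acid desaturase gene outside the list, was called lower at -0.88 (adjusted p = 0.048).

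Further called genes were grouped after their values were seen, and no group was tested. Of 17 V-ATPase subunit genes tested, which encode the proton pump of lysosomes, ATP6V1A (-1.22 ± 0.20, SE; adjusted p = 0.0048) and ATP6V0A1 (-1.16 ± 0.20; adjusted p = 0.0073) passed. The median of all 17 was -0.05. Of 3 tested APOL genes, APOL1 (-1.35 ± 0.33; adjusted p = 0.048) and APOL2 (-1.19 ± 0.26; adjusted p = 0.029) passed. The ubiquitin ligase genes UBE4B and UBE2O had interactions of -0.97 (adjusted p = 0.033) and -1.01 (adjusted p = 0.019). TLR6, a receptor for bacterial lipopeptides, had -1.01 (adjusted p = 0.041), and LRRK2, the kinase mutated in familial Parkinson disease, -1.24 (adjusted p = 0.026). The mitochondrial ribosomal RNA gene MT-RNR1 had -0.89 (adjusted p = 0.041), and the whole mitochondrial share of reads moved the same way, higher with bortezomib in both control pairs and lower in all 4 knockout pairs. The part of that share in this value was not tested.

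Among the other genes called higher, AREG, an EGF receptor ligand, had an interaction of 1.16 (adjusted p = 0.0089) and EDN1, endothelin, 0.97 (adjusted p = 0.028). TGFB2, a TGF-beta ligand, had 1.04 (adjusted p = 0.044) and ANXA1, an annexin, 0.88 (adjusted p = 0.041). UACA had 1.24 (adjusted p = 0.0035), PGM2L1 1.20 (adjusted p = 0.0073) and the keratin gene KRT80 1.21 (adjusted p = 0.017). CKS2, a partner of cyclin-dependent kinases, had 1.03 (adjusted p = 0.043). Genes called higher near the threshold included NTN4 at 0.93 (adjusted p = 0.045), LAYN at 1.99 (adjusted p = 0.048) and FAM64A at 1.21 (adjusted p = 0.048). Genes called lower near the threshold included FBXL19-AS1 at -1.09 (adjusted p = 0.048), APOL1 at -1.35 (adjusted p = 0.048) and SCD at -0.88 (adjusted p = 0.048). Just outside it were PCDHAC1 at -1.48 (adjusted p = 0.0501), PAPPA at 0.86 (adjusted p = 0.0501) and MGAT5 at -0.85 (adjusted p = 0.0501).

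Level differences between the lines in each treatment show where an interaction lay. For the 39 genes the median knockout minus control difference was -0.26 in vehicle and 0.85 in bortezomib, and for the 74 genes 0.16 and -0.99. The vehicle difference was the further from 0 in 14 of the 39 and 16 of the 74, and in 5440 of all 12194 genes tested. IL11 belonged to these, with -2.40 in vehicle and 0.42 in bortezomib, as did DUSP1 with -1.90 in vehicle and -0.12 in bortezomib and PLCH1 with 2.02 in vehicle and 0.38 in bortezomib. CXCL3 lay at the other end with 0.27 in vehicle and 2.94 in bortezomib, as did KIF1B with -0.05 in vehicle and -1.47 in bortezomib. The level differences share all libraries with the interaction and are given as descriptions.

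**Figure D4:**
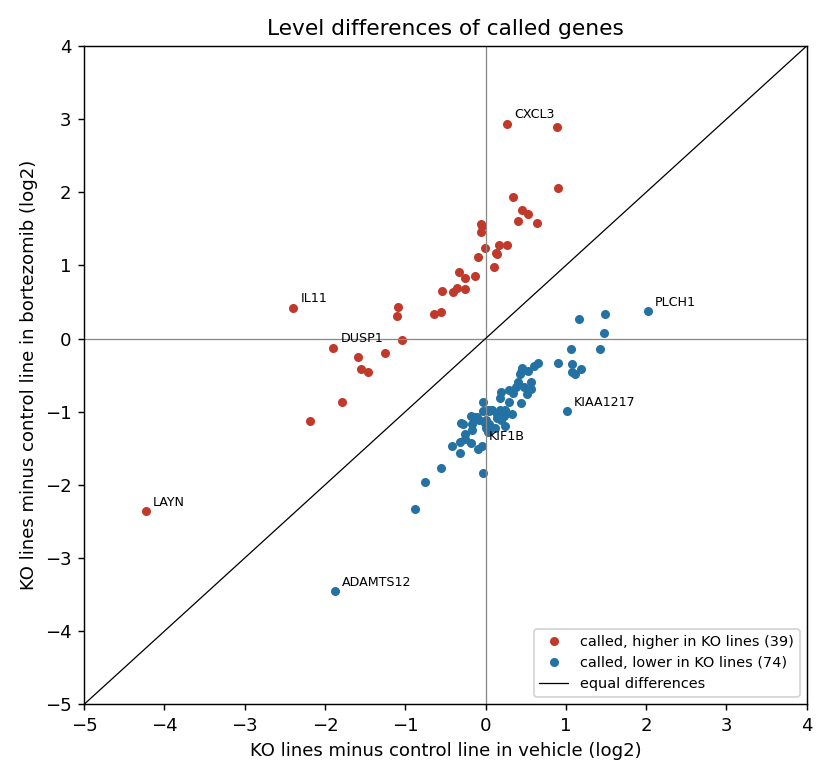
Knockout minus control level difference (log2, mean of KO1 and KO2) of the 113 called genes, in vehicle on the x axis and in bortezomib on the y axis. Points far from 0 on the x axis and near 0 on the y axis, such as IL11, DUSP1 and PLCH1, differed before treatment; points near the vertical axis line, such as CXCL3 and KIF1B, differed with bortezomib.

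Proteasome subunit genes, the best known NFE2L1 targets, did not include a called gene. Of the 31 tested, 9 were above 0 and 22 below, with a median interaction of -0.13. In limma 4 had an unadjusted p under 0.05, beside 1431 of all 12194 genes tested. The median response of the 31 was 0.68 in control cells, 0.52 in KO1 and 0.55 in KO2. PSMC4, a 19S ATPase subunit, was the lowest. PSMC4 FPKM was 112 and 53.7 in vehicle and 285 and 156 in bortezomib in control cells, 67.8 and 25.1 in vehicle and 115 and 49.3 in bortezomib in KO1, and 109 and 54.5 in vehicle and 179 and 103 in bortezomib in KO2. Bortezomib raised it in every pair, with responses of 1.45 in control cells, 0.87 in KO1 and 0.82 in KO2, each past the test, and the interaction was -0.60 ± 0.21 (SE; adjusted p = 0.22). PSMC1, the highest, was at 0.20 ± 0.22 (SE; adjusted p = 0.78). Without the control R2 vehicle library the median of the 31 was 0.0042, and without the unnumbered control vehicle library it was -0.24.

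Over all 20 pathway lists, 337 genes were found in the table and 314 were tested. Of 14 immediate early genes, JUN passed and 12 were above 0, with a median of 0.41. Of 24 NRF2 target and redox genes none passed in limma and 3 had an unadjusted p under 0.05. Their median was 0.09, from -0.70 for the iron exporter gene SLC40A1 to 0.61 for the aldo-keto reductase gene AKR1B10. Of 12 snoRNA host genes none passed in limma, 5 had an unadjusted p under 0.05 and 10 were above 0. Their median was 0.47, with pair medians of 0.92 and 0.06 for KO1 and 0.80 and 0.10 for KO2, so the first pairs were high and the R2 pairs near 0. Of 20 mitosis and replication genes CDC20 passed and 12 were above 0, with a median of 0.11. No gene passed in limma in 7 further lists. The median was 0.15 for 14 proteasome activators, immunosubunits and assembly factors (9 above 0), and 0.05 for 15 genes of NFE2L1, its relatives, partners and processing factors (9 above 0). It was -0.13 for 16 ubiquitin, p97 and shuttle genes (7 above 0) and 0.09 for 13 unfolded protein response genes of the endoplasmic reticulum (10 above 0). The 13 BCL2 family and death receptor genes had 0.05 (9 above 0), the 2 metallothionein and zinc exporter genes 0.27 (1 above 0) and the 13 listed mitochondrially encoded genes -0.12 (3 above 0). In the order given, 2, 4, 7, 3, 2, 1 and 1 of these genes had an unadjusted p under 0.05. Of all genes tested 50.9% were above 0, with a median of 0.01. An unadjusted p under 0.05 in limma was reached by 1431 of all 12194 genes tested.

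**Figure D5:**
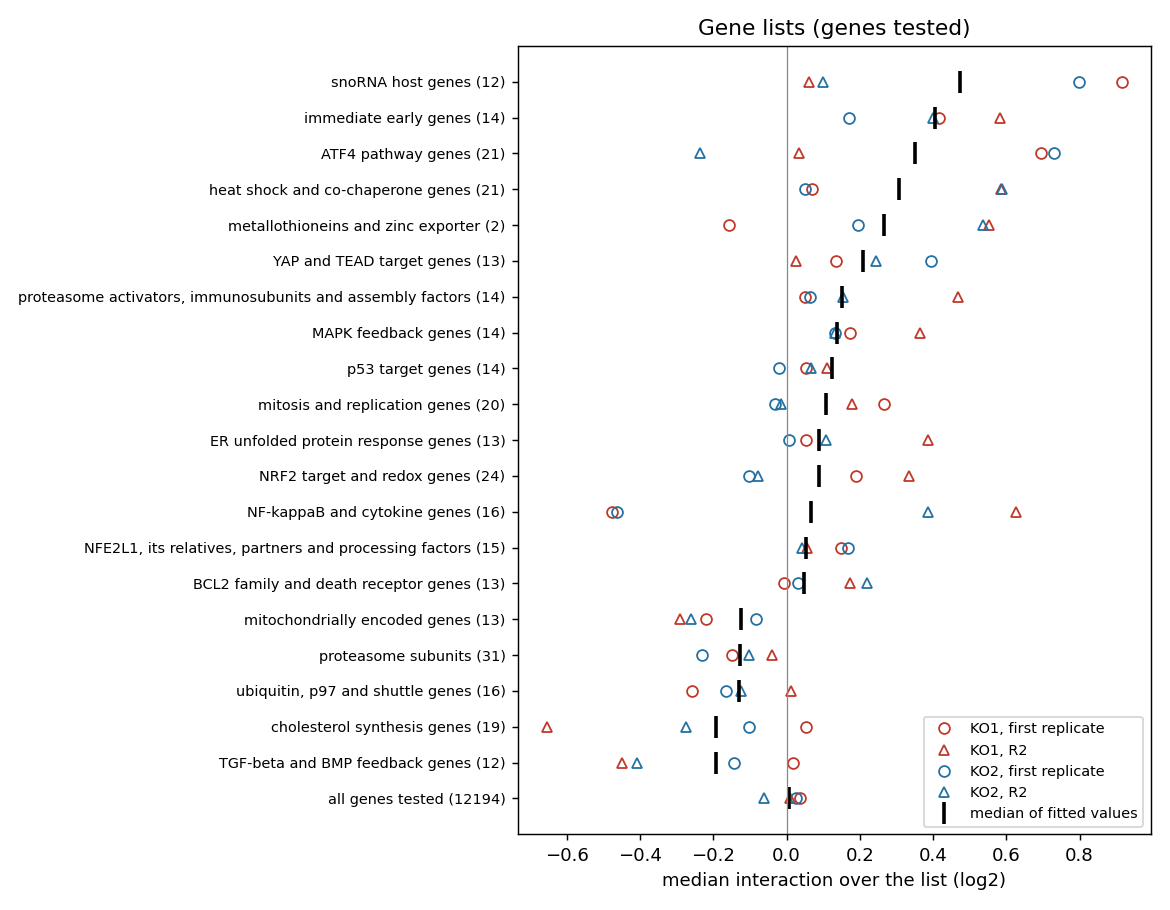
Median interaction (log2) of each of the 20 pathway lists and of all genes tested, with the number of genes tested in brackets, for the fitted values and for each of 4 pairs of libraries. The pair medians of all genes tested lie between -0.06 and 0.04. Lists whose circles (first pairs) and triangles (R2 pairs) lie apart include the snoRNA host, ATF4 pathway, NF-kappaB, heat shock and TGF-beta lists.

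The 2 knockout lines were also compared with the control line one at a time, which uses the same control libraries for both. KO1 gave 77 calls (0.631%), 28 higher and 49 lower, and KO2 gave 10 calls (0.0820%), 6 higher and 4 lower. The median interaction of the 39 genes was 1.23 in KO1 and 1.16 in KO2, and that of the 74 genes -1.26 and -1.02. These genes were called on the mean of the KO1 and KO2 interactions, so nothing further is read from these medians. The difference between the responses of KO1 and KO2 passed the test for 0 of 12194 genes (0%) in limma, with 224 at an unadjusted p under 0.05. Its formula takes no control group, but the control libraries were part of the fit that gave its p-values. On log2(FPKM + 1) with the block, 0 genes passed and 280 had an unadjusted p under 0.05. A difference between KO1 and KO2 was not detectable with these libraries, at a median SE of 0.29 on the log2 scale. Named genes with an interaction further from 0 in KO1 included IL11 (3.19 for KO1 and 2.51 for KO2), CXCL1 (2.97 for KO1 and 1.51 for KO2), DKK1 (2.01 for KO1 and 1.19 for KO2) and ALOX12P2 (-2.14 for KO1 and -0.91 for KO2). Those further from 0 in KO2 included PHLDB2 (1.51 for KO1 and 1.73 for KO2), ITPKC (-1.29 for KO1 and -1.57 for KO2) and TUBB4A (-1.72 for KO1 and -2.10 for KO2). The KO1 value was the further from 0 in 25 of the 39, 61 of the 74 and 7132 of all 12194 genes tested.

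Gene length differed between the called groups. The median length was 3144 bases in the 39 genes, 6761 in the 74 and 4574 over all genes tested. With all genes tested split by length into 5 classes of equal size, the median interaction went from 0.09 in the shortest to -0.09 in the longest. From the shortest to the longest class the 74 genes numbered 3, 6, 17, 19 and 29, and the 39 genes numbered 13, 9, 8, 0 and 9. The median GC content was 48.6% in the 39 genes, 48.2% in the 74 and 48.3% over all. The part of length in the interaction was not tested. In GENCODE 29, 77 of the 113 called genes overlap another gene model, 60 of them one on the opposite strand, among them KIAA1217, ITPKC, TUBB4A, SH2B3, ERAP2, PLCH1, EVA1A, DKK1 and DUSP1. Whole gene spans were compared, introns included. The share over all genes tested was not computed, so nothing is read from these counts. Whether the counting used strand is not given in the sources used here. Where such genes share transcribed bases, their reads may not be told apart.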

How the data were processed

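RNA-seq was made from A549 cells of 3 genotypes with vehicle or bortezomib, 12 libraries in 6 groups of 2. The authors deposited 1 table of FPKM values per gene and library with a gene length. Per the submitters' processing notes, which give no roles or order, CASAVA, STAR 2.5, HTSeq 0.6.1, DESeq2 and hg19 were named. All 58676 gene IDs are in GENCODE 29, and 95.2% have its GRCh38 positions, so coordinates here are as deposited and on GRCh38. FPKM times gene length summed to the same total in each library and gave whole reads for 100% of values (tolerance 0.01 read), which gave 13211608 to 23819258 assigned reads a library. The ± SE values come from the fit and measure the spread between libraries. As a scale for counting alone, 3 reads in a gene of 1 kb are 0.126 to 0.227 FPKM.

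Recovered reads of the 12194 genes whose FPKM averaged 1 or more were fitted with limma 3.58.1 (voom, R 4.3.3), with 6 group means and the title suffix (none, R1, R2) as a block. Library size was the sum of assigned reads, and p-values were adjusted by the Benjamini-Hochberg method over all genes tested at a threshold of 0.05. This fit on recovered reads stands in place of a test on log2(FPKM + 1), which is an alternative. The fit left 4 residual degrees of freedom, and moderation over genes brought the total to 21. The fit was also run on simulated data with a common spread for all genes, and nothing is read from that run here. The pairing of suffixes was checked on the data: the difference between the 2 libraries of a group correlated across genes between groups with r of 0.623 to 0.827 (median 0.741) over 15 pairs of groups. Pair values are on log2 library-scaled reads with 0.5 reads added, each R1 knockout library against the unnumbered control library and R2 against R2; that unnumbered libraries match R1 is not stated in the labels.

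Named genes were NFE2L1, the 12 highest and the 12 lowest interactions among genes called with 1 sign in all 4 pairs, each called gene of a list, and the highest and lowest gene of the proteasome, heat shock, ATF4 and NRF2 lists. Genes named besides these were chosen after their values were seen. The members, lists and tests were chosen with earlier results of these data known. Some genes that this rule gives are not reported here. Motif searches used RefSeq promoters of GRCh38.p14. Alternatives were other blocks, scalings, filters and pseudocounts, quality weights and leaving out libraries.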

Additional observations from a re-analysis of the deposited data

Results flagged for a closer look

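The response to bortezomib differed between the knockout lines and the control line by a test of the difference itself, the limma interaction, for 113 genes. Among the named genes with a higher response in the knockout lines, the log2 interactions were those of IL11 (2.85), CXCL3 (2.83), CXCL1 (2.24), LAYN (1.99), DUSP1 (1.77), CXCL2 (1.69), PHLDB2 (1.62), EVA1A (1.61) and DKK1 (1.60). They were also those of JUN (1.52), DUSP5 (1.41), GPRC5A (1.31), CDC20 (1.23), HSPB1 (1.04), GDF15 (1.02), CYR61 (1.01) and AXL (0.93). Among the named genes with a lower response, they were those of KIF1B (-1.42), ITPKC (-1.43), SH2B3 (-1.43), CARD6 (-1.50) and ALOX12P2 (-1.52), and of ERAP2 (-1.56), ADAMTS12 (-1.57), SH3BP2 (-1.63), PLCH1 (-1.65), SGK2 (-1.69), TUBB4A (-1.91) and KIAA1217 (-1.99). All 29 values belong to a test with 2 libraries a group, and 27 of the 29 lost the call without the control R2 bortezomib library.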

How the results depend on the processing

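The number of genes called depended on the replicate block and on the scale of the values. Without the replicate block the calls were 0 for the mean of the knockout lines, 0 for KO1 and 0 for KO2, and 41, 27 and 31 for the responses of the control line, KO1 and KO2. On log2(FPKM + 1) without the block they were 0, 0 and 0, and 57, 29 and 39. With the block, log2(FPKM + 1) gave 0, 5 and 0 and log2(FPKM + 0.1) gave 0, 0 and 0 for the mean, KO1 and KO2. With unnumbered control libraries on the level of R1 in the block the calls were 73, 35 and 4, and with its own block levels in each line 29, 20 and 0. Quality weights gave 49, 30 and 6. A mean FPKM of at least 5, which tests fewer genes, gave 46, 30 and 6, and 2878, 2547 and 2462 for the responses. Quantile normalization gave 0 for KO2 and 111 for the mean, median-ratio scaling 142 and the fit without mitochondrially encoded genes 125.

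Leaving out 1 library gave 3 to 174 calls for the mean, 10 to 181 for KO1, 0 to 23 for KO2 and 0 to 1 for KO1 minus KO2. The responses had 2458 to 5030 calls in the control line, 2124 to 4252 in KO1 and 1954 to 4368 in KO2. Leaving out 1 control library leaves its partner without a match, and so removes the pair from the comparison. Pairs of control libraries were left out in fits added after seeing the data. Without the unnumbered pair the calls were 27, 20 and 0, and 3061 for the control response. Without the R2 pair they were 3, 10 and 0, and 2458. The interaction of HSPA1B was 0.48 without either or both unnumbered control libraries, and that of ASNS was 0.14 without either or both R2 control libraries. Over the fits that left out 1 library they ranged from -0.80 to 0.48 and from -1.40 to 0.14, and neither was called in the reported fit. No other named gene changed direction under the 27 settings tried, where the gene was tested. The cause of these changes was not tested. With 2 libraries a group the median SE of an interaction was 0.25 on the log2 scale, which limits what could be detected.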
